A study of Homo sapiens with 3 samples.

Results

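The mitochondrial carriers of the SLC25 family were examined in LNCaP, an androgen-sensitive cell line from human prostate cancer. The cells had received a control siRNA or 1 of 2 siRNAs that, by their titles, target HOXD-AS1, a long non-coding RNA. The carriers were taken by name, as all probe sets whose single annotated gene symbol was SLC25A followed by a number. This rule found 117 of the 49388 probe sets on the array, which stood for 46 of the 18131 genes that had a probe set of their own. SLC25A6 had no probe set under the rule and was not analysed here. RNA was taken 48 h after transfection with 75 nM siRNA by a lipid reagent. Each group, the control, siRNA 1 or siRNA 2, was 1 array, so no difference has a replicate check and no test between groups was possible. All cells were grown in phenol red-free medium with serum. The source labels name the cells LNCaP, LNCaP-Bic and LNCaP-AI for the control, siRNA 1 and siRNA 2 arrays, whereas the cell line label is LNCaP throughout, so the siRNA and any difference between such cells cannot be told apart. The labels also tie the siRNA target positions to the coding sequence of WDR5, while the titles name HOXD-AS1. Inhibition rates, relative to the control siRNA, are listed as 1 for the control, 0.23 for siRNA 1 and 0.25 for siRNA 2. HOXD-AS1 itself, under its current symbol HAGLR, had 0 annotated probe sets, and its knockdown was not analysed here.

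The siRNA strands given in the labels define the groups and are shown for that reason, with the last 2 of their 21 bases, the usual overhang, in capitals.
control siRNA: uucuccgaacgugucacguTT
HOXD-AS1 siRNA 1: gaaagaaggaccaaaguaaUU
HOXD-AS1 siRNA 2: gcccuuucugaccugcuuaUU

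SLC25 proteins sit mostly in the inner mitochondrial membrane, where they exchange nucleotides, phosphate, organic acids, amino acids and cofactors between the matrix and the cytosol. Their sequence is built from repeats of a module with a pair of transmembrane helices, and most work as exchangers that open in turn to either side of the membrane. Prostate epithelium is known for secreting citrate, and prostate cancer cells for oxidising more of it, so the carriers of citrate and of its metabolic neighbours have drawn interest in this tissue.

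The arrays were closely alike in overall signal, with median intensities of 25.7 to 26.1. Intensities are on a linear scale and differences are log2 values, siRNA minus control unless stated. Values under the median of all intensities, 25.96, were raised to it, and a gene was called measured where at least 1 array was above that floor. Each gene was represented by its brightest probe set on average over the arrays. Over all 11286 measured genes the median difference was 0.00 with siRNA 1 and 0.01 with siRNA 2. All 9 luminal prostate genes with a probe set were measured, 5 of them higher and 3 lower than the control with both siRNAs. They ranged from SLC45A3 (-0.91 and -0.56) to ACP3 (1.22 and 1.80), and the part of such differences in the carriers' values was not tested. The 4 leukocyte genes with a probe set were all below the floor. Of the stromal genes, COL1A2, DCN and LUM were below it, and COL3A1 read 17.9, 28.4 and 50.4 on the control, siRNA 1 and siRNA 2 arrays, while COL1A1 read 34.0, 26.6 and 33.6. KRT14 was measured and KRT5 was not among basal genes, and VIM was measured (660.1, 593 and 735) while CAV1 and CD44 were below the floor. Of 5 proliferation genes, 5 were lower than the control with both siRNAs, with medians of -1.30 and -0.68, and their part in the carriers' values was not tested.

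Of the 46 carrier genes 38 were measured, with intensities from 21.7 to 6727 for the chosen probe sets. The other 8 were below the floor on all 3 arrays, between 2.80 and 24.6. They were SLC25A2, an ornithine carrier, SLC25A18, a glutamate carrier, SLC25A31, the ADP/ATP carrier of germ cells, SLC25A41, an ATP-Mg/phosphate carrier, SLC25A51, the NAD carrier, and SLC25A43, SLC25A48 and SLC25A53. The reading for SLC25A51 (24.6, 19.2 and 23.5) lay just under the floor. SLC25A52, its close copy, read 33.7, 25.2 and 28.6, and cross-hybridisation between these copies was not tested.

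The family leaned towards lower values, with few large differences. Among the 38 measured carriers, 19 were lower than the control with both siRNAs (50%, against 32.1% of all measured genes) and 10 were higher with both (26.3%, against 34.3%). The remaining 9 went opposite ways. The median carrier difference was -0.20 with siRNA 1 and -0.07 with siRNA 2. Both differences share the control array, so agreement in direction between them is partly built in. The carriers were read against the same shares over all genes as a description, and no test of the list was made.

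Only SLC25A10 and SLC25A23 passed 2-fold, both with siRNA 1. That is 1 of 38 carriers lower and 1 higher by 2-fold or more, where 1.76% of all measured genes were lower and 1.36% higher. At 1.5-fold, 4 carriers were lower with siRNA 1 (SLC25A10, SLC25A15, SLC25A30 and SLC25A35; background 6.16%) and SLC25A23 alone was higher (background 6.9%). With siRNA 2, SLC25A32 was lower by 1.5-fold or more (background 4.67%) and SLC25A20, SLC25A42 and SLC25A45 were higher (background 4.75%), with 0 carriers at 2-fold (background 1.39%). No carrier was 1.5-fold or more from the control in the same direction with both siRNAs, where 3.35% of all measured genes were, and none at 2-fold (0.399%). The nearest was SLC25A32, at -0.57 and -0.95, just short of the 1.5-fold limit with siRNA 1 and past it (-0.59) after quantile normalization. In all, 27 of the 38 carriers (71.1%) stayed within 1.5-fold in all 3 pairs of arrays, against 77.7% of all measured genes.

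**Figure D1:**
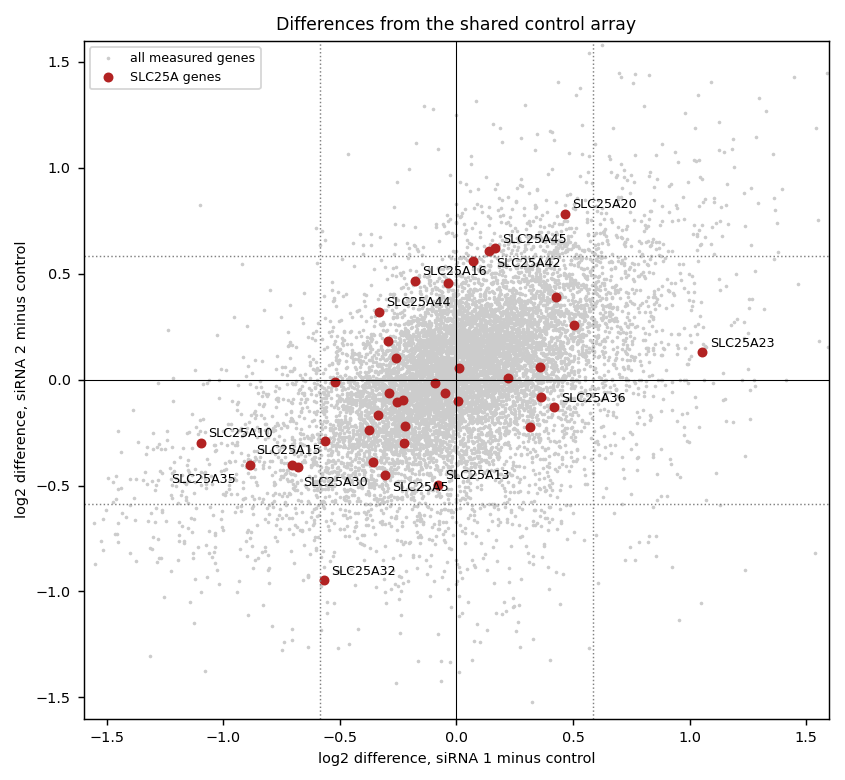
Each point is a measured gene, placed by its log2 difference from the control array with siRNA 1 (horizontal) and siRNA 2 (vertical); grey points are all measured genes, red points the 38 measured SLC25A carriers, and dotted lines mark 1.5-fold. No carrier lies past the dotted lines of both axes on the same side of 0, and SLC25A10 and SLC25A23 lie farthest left and right; 62 measured genes fall outside the plotted range.

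Several probe sets of a gene gave the only repeat readings. They share the RNA and are not replicates. For 23 carriers 2 or more probe sets were measured, and the pooled SD of the difference within a gene was 0.21 with siRNA 1 and 0.18 with siRNA 2, against 0.22 and 0.20 over 6263 genes of this kind. In 9 of the 23 carriers every measured probe set was lower with both siRNAs (39.1%, against 18.9% of the 6263 genes). These were SLC25A3, SLC25A5, SLC25A10, SLC25A11, SLC25A13, SLC25A14, SLC25A15, SLC25A17 and SLC25A32. In 3 carriers, SLC25A20, SLC25A23 and SLC25A29, every probe set was higher with both (13%, against 16.6%). A further 3, SLC25A1, SLC25A16 and SLC25A44, were lower in all probe sets with siRNA 1 and higher in all with siRNA 2, and SLC25A36 was the reverse. The other 7 were counted as mixed, where a difference of 0.00 set by the floor also counts as no agreement. SLC25A27 was placed there by such a value, with 0.22 to 0.36 for siRNA 1 and -0.09 to 0.00 for siRNA 2. The same counting was used for the 6263 genes.

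**Figure D2:**
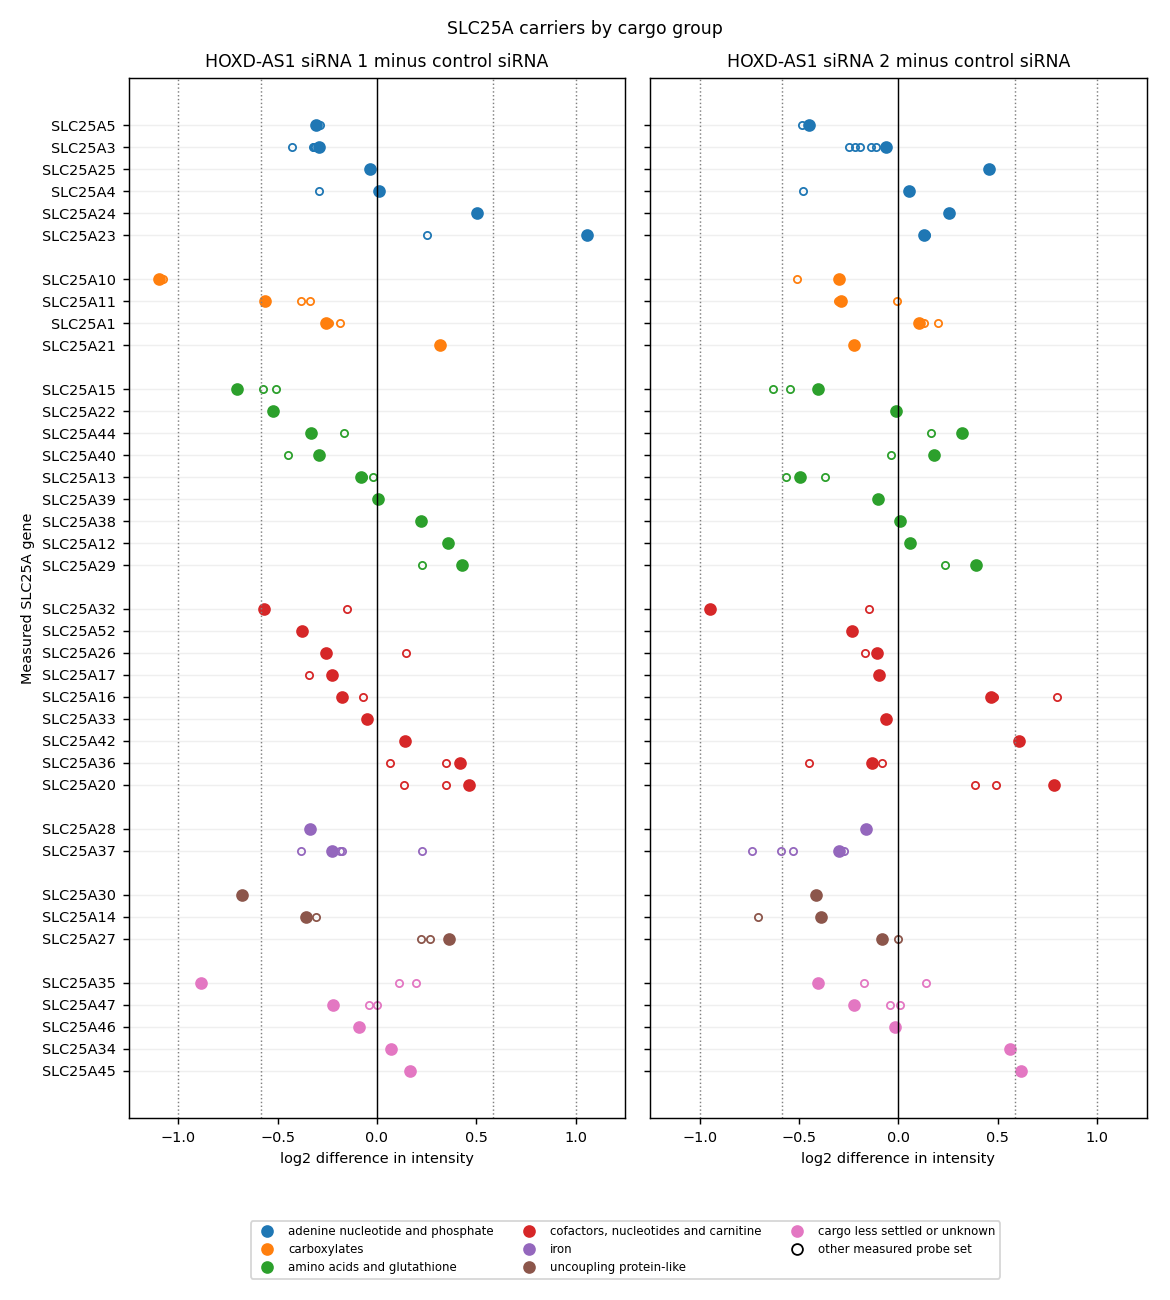
Log2 differences from the control array are plotted for the 38 measured carriers, grouped and coloured by cargo, with siRNA 1 on the left and siRNA 2 on the right; filled points are the probe set that stands for the gene, open points its other measured probe sets, and dotted lines mark 1.5-fold and 2-fold. SLC25A10 and SLC25A5 show probe sets close together with siRNA 1, while those of SLC25A35 lie on both sides of 0.

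Among the carriers of adenine nucleotides and phosphate, 6 of 8 with a probe set were measured, with medians of -0.01 and 0.09. SLC25A5, the ADP/ATP carrier of dividing cells, had intensities of 5754.5, 4646 and 4215 on the control, siRNA 1 and siRNA 2 arrays. A second probe set read 5274, 4319.5 and 3766. Both probe sets were thus lower in both siRNA arrays, by log2 differences of -0.31 and -0.29 with siRNA 1 and -0.45 and -0.49 with siRNA 2. RefSeq holds 9 pseudogenes named for SLC25A5, and signal from such copies cannot be told apart. SLC25A4, the ADP/ATP carrier of heart and muscle, read 281, 283 and 292, within 0.06 of the control on the log2 scale. Its other probe set read 108, 88.2 and 77.5, differences of -0.29 and -0.48, so its direction depended on the probe set.

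SLC25A3, which brings in the phosphate used for ATP synthesis, was lower in all 6 of its probe sets. The chosen probe set read 6727 (control), 5496 (siRNA 1) and 6439 (siRNA 2), and the differences over the 6 ran from -0.43 to -0.29 with siRNA 1 and from -0.25 to -0.06 with siRNA 2. The siRNA 1 array was the lowest in each.

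Of the calcium-regulated ATP-Mg/phosphate carriers, SLC25A23 and SLC25A24 were higher with both siRNAs. SLC25A23 read 147 (control), 305 (siRNA 1) and 161 (siRNA 2), which is 2.08-fold and 1.09-fold above the control. The siRNA 1 array stood above both others. Its other measured probe set read 55.6, 66.1 and 61.1, differences of 0.25 and 0.14, so the 2-fold difference rested on 1 probe set. SLC25A24 read 295, 418 and 352, differences of 0.50 and 0.26. SLC25A25 read 189, 184 and 259, differences of -0.04 and 0.46, and stood apart with siRNA 2 only. Each of these last carriers had 1 measured probe set.

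The carboxylate carriers held the largest negative difference of the family. SLC25A10, which exchanges malate and succinate for phosphate, read 525 (control), 245 (siRNA 1) and 427 (siRNA 2), or 2.14-fold and 1.23-fold lower. The other SLC25A10 probe set read 68.2, 32.4 and 47.8, differences of -1.07 and -0.51. Both readings had the control highest and siRNA 1 lowest, and 1.34% of all measured genes were as low or lower with siRNA 1. Between the siRNA arrays the difference, siRNA 1 minus siRNA 2, was -0.80 and -0.56.

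SLC25A11, the oxoglutarate/malate carrier, read 395, 267 and 323, differences of -0.56 and -0.29. Its 2 other probe sets differed by -0.38 and -0.34 with siRNA 1 and by -0.01 and -0.30 with siRNA 2. SLC25A1, the citrate carrier, read 555, 464 and 597, differences of -0.26 and 0.10. Its 3 measured probe sets were lower with siRNA 1 (-0.26 to -0.19) and higher with siRNA 2 (0.10 to 0.20), and siRNA 1 was the lowest array in each. SLC25A21, a carrier of oxoadipate, read 37.8, 47.1 and 32.4 near the floor, differences of 0.32 and -0.22. The SLC25A21 gene overlaps PAX9 in RefSeq, and PAX9 differed by 0.34 and -0.11. Over these 4 carriers the medians were -0.41 and -0.26.

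**Figure D3:**
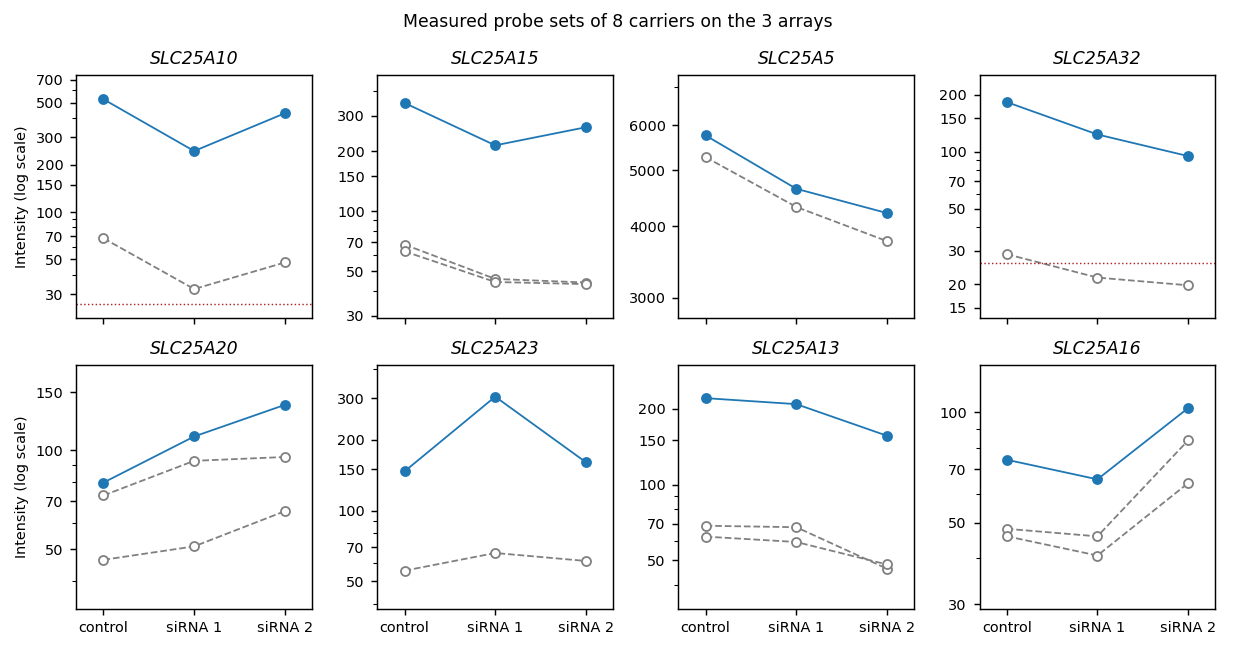
Intensities (logarithmic axes, 1 scale per panel) of all measured probe sets of 8 carriers are plotted on the control, siRNA 1 and siRNA 2 arrays; filled points joined by solid lines are the probe set that stands for the gene, open points joined by dashed lines the others, and the dotted line marks the floor of 25.96 where it falls in the panel. Both probe sets of SLC25A10 are lowest with siRNA 1 and all 3 of SLC25A16 are highest with siRNA 2, whereas the SLC25A23 probe sets differ in size.

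Of the carriers of amino acids and glutathione, 9 of 11 were measured, with medians of -0.08 and 0.01, 3 lower and 3 higher with both siRNAs. SLC25A15, the ornithine/citrulline carrier of the urea cycle, read 349 (control), 214 (siRNA 1) and 263 (siRNA 2). Its other probe sets read 68.1, 45.8 and 43.9, and 62.9, 44.2 and 43.1. The control was the highest array in all 3, with differences from -0.71 to -0.51 with siRNA 1 and from -0.63 to -0.40 with siRNA 2. RefSeq holds 5 pseudogenes named for SLC25A15.

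The aspartate/glutamate carriers of the malate-aspartate shuttle differed from each other. SLC25A13, the widely expressed form, read 220.1, 208 and 156, and its 3 probe sets differed by -0.08 to -0.02 with siRNA 1 and by -0.57 to -0.37 with siRNA 2. The siRNA 2 array was lowest in each. SLC25A12, known from brain and muscle, read 47.4, 60.7 and 49.4, differences of 0.36 and 0.06 from its only measured probe set. The shuttle's cytosolic transaminase gene GOT1 differed by -0.55 and -0.04 and the mitochondrial GOT2 by -0.18 and 0.13. Other GOT2 probe sets differed by as much as -0.46 with siRNA 1 and -0.54 with siRNA 2, so its direction with siRNA 2 depended on the probe set. By the brightest probe set, its dehydrogenase genes MDH1 and MDH2 lay between -0.18 and 0.06, and over all their probe sets between -0.35 and 0.06.

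SLC25A44, a carrier of branched-chain amino acids, read 109, 86.2 and 136, lower than the control with siRNA 1 (-0.33) and higher with siRNA 2 (0.32). A second measured probe set differed by -0.16 and 0.16. SLC25A22, a glutamate carrier, read 505, 351 and 501, a difference of -0.52 with siRNA 1 and -0.01 with siRNA 2. SLC25A29, a carrier of basic amino acids, read 134, 180.2 and 175, higher in both siRNA arrays (0.43 and 0.39). A second probe set gave 0.23 and 0.24. The SLC25A29 gene overlaps YY1 in RefSeq, and YY1 differed by 0.17 and 0.22. SLC25A38, the glycine carrier needed for heme synthesis, differed by 0.22 and 0.01. The glutathione carriers SLC25A39 and SLC25A40 differed by 0.01 and -0.10 and by -0.29 and 0.18, with the second SLC25A40 probe set at -0.45 and -0.04. SLC25A39 read 904, 908 and 842.

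Among the carriers of cofactors, nucleotides and carnitine, 9 of 10 were measured, 5 lower and 2 higher with both siRNAs, with medians of -0.18 and -0.10. SLC25A32, the folate carrier, also linked to FAD, read 183 (control), 123 (siRNA 1) and 94.9 (siRNA 2), or 1.48-fold and 1.93-fold lower. This was the largest negative carrier difference with siRNA 2, and 0.797% of all measured genes were as low or lower there. Its other probe set read 28.8, 21.7 and 19.7 and lay under the floor with both siRNAs, so its differences of -0.15 are bounds set by the floor.

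SLC25A20, which carries acylcarnitines into the matrix for fatty acid oxidation, had the largest positive carrier difference with siRNA 2 among the probe sets that stand for a gene. A dimmer probe set of SLC25A16 differed by 0.80, and with the mean of all probe sets SLC25A16 (0.58) exceeded SLC25A20 (0.55). SLC25A20 read 79.8 (control), 110.1 (siRNA 1) and 137 (siRNA 2). The other probe sets read 72.9, 92.9 and 95.4, and 46.5, 51.1 and 65.3. All 3 had the control lowest and siRNA 2 highest, with differences of 0.14 to 0.46 and 0.39 to 0.78. In the same pathway CPT2, which regenerates acyl-CoA in the matrix, differed by 0.24 and 0.60. CRAT, the carnitine acetyltransferase gene, was added with its values already known, at 0.05 and 0.64. So were GOT1, GOT2, MDH1, MDH2 and CPT1A. CPT1A, which forms acylcarnitines at the outer membrane, differed by 0.03 and 0.04, while its other probe set differed by -0.50 and -0.41.

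SLC25A16, linked to coenzyme A transport, read 74.3, 65.7 and 103, and its 3 probe sets were lower with siRNA 1 (-0.18 to -0.07) and higher with siRNA 2 (0.47 to 0.80). The siRNA 2 array was the highest in each. SLC25A42, a coenzyme A carrier, read 49.8, 54.9 and 75.9, differences of 0.14 and 0.61 from its only measured probe set. The pyrimidine nucleotide carriers were SLC25A33, which read 1849, 1787 and 1769 with differences of -0.05 and -0.06, and SLC25A36, which read 466, 623 and 425. The 3 SLC25A36 probe sets were higher with siRNA 1 (0.07 to 0.42) and lower with siRNA 2 (-0.45 to -0.08). SLC25A26, the S-adenosylmethionine carrier, differed by -0.26 and -0.11 and its other probe set by 0.15 and -0.17. It overlaps LRIG1 in RefSeq, which differed by -0.08 and -0.43. The peroxisomal carrier SLC25A17 differed by -0.23 and -0.10, and SLC25A52 by -0.38 and -0.24 near the floor, the first a bound since siRNA 1 lay under it.

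Both mitoferrins, which import iron for heme and iron-sulfur clusters, were lower in both siRNA arrays. SLC25A37 read 950.0, 813 and 773 in its chosen probe set, differences of -0.22 and -0.30. Its 5 probe sets ran from -0.38 to 0.23 with siRNA 1 and from -0.74 to -0.28 with siRNA 2, so only the siRNA 2 direction was the same in all. SLC25A28 read 99.4, 78.8 and 88.6, differences of -0.33 and -0.17.

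Of the carriers related to the uncoupling proteins, SLC25A30 read 153, 95.3 and 115, differences of -0.68 and -0.41 from its only measured probe set. SLC25A14 read 200.2, 156 and 153, differences of -0.36 and -0.39, and its other measured probe set differed by -0.31 and -0.70. In both genes the control array was the highest. SLC25A27 read 31.8, 40.9 and 30.05, close to the floor, differences of 0.36 and -0.08. The uncoupling protein gene UCP2, a family member under another name, differed by 0.16 and 0.08. The carrier-like outer membrane genes MTCH2 and MTCH1 differed by -0.18 and -0.04 and by -0.17 and 0.19. The second MTCH2 probe set differed by 0.34 and 0.00.

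Of the carriers whose cargo is less settled 5 of 8 were measured, 3 lower and 2 higher with both siRNAs. SLC25A35 read 113, 61.2 and 85.3, differences of -0.88 and -0.41, but its 2 other measured probe sets differed by 0.11 and 0.20 with siRNA 1 and by 0.14 and -0.17 with siRNA 2. SLC25A35 overlaps RANGRF in RefSeq, which differed by -0.23 and -0.06. SLC25A45 read 197, 221 and 302, differences of 0.17 and 0.62, and overlaps FRMD8, at 0.03 and 0.26. SLC25A34 read 28.6, 30.1 and 42.3 near the floor, differences of 0.07 and 0.56. SLC25A46, an outer membrane protein of mitochondrial fission, read 282, 265 and 279, differences of -0.09 and -0.02. SLC25A47 read 30.3, 25.7 and 21.7, and both siRNA arrays lay under the floor, so its differences of -0.22 are bounds.

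Between the siRNA arrays themselves, 4 carriers were 1.5-fold or more apart and 0 were 2-fold apart (background 2.22%). SLC25A10 (-0.80), SLC25A44 (-0.65) and SLC25A16 (-0.64) were lower with siRNA 1 than with siRNA 2, 3 of 38 against a background of 4.87%. SLC25A23 was higher (0.93), 1 of 38 against a background of 6.52%. SLC25A36 and SLC25A21 followed at 0.55 and 0.54 in their chosen probe sets, short of that limit. The other SLC25A36 probe sets differed by 0.80, past it, and by 0.15. Conversely, the other measured probe sets of SLC25A10 (-0.56), SLC25A44 (-0.33) and SLC25A23 (0.11) fell short of it.

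Upstream sequence was examined for the whole family. RefSeq gave 250 bases before the start of 39 of the 46 genes on GRCh38.p14. These were searched on both strands for the E-box CACGTG, the CCAAT box (CCAAT or ATTGG) and GCGCATGC or its reverse GCATGCGC, part of the NRF1 consensus. No searched motif contains another. The E-box was present upstream of 7 of the 39 carriers (17.9%, against 6.49% of 27305 promoters), the CCAAT box in 17 (43.6%, against 33%) and the NRF1 letters in 0 (against 2.81%). Among the 33 measured carriers with a sequence, 5 held the E-box (15.2%, against 9.21% of promoters of measured genes), 16 the CCAAT box (48.5%, against 35.7%) and 0 the NRF1 letters (against 4.92%). A match is a description of these letters only. The stretches below belong to carriers whose measured probe sets agreed in direction, and to SLC25A42, whose stretch held 6 CCAAT boxes, the most among the carriers searched. They lie on GRCh38.p14 at chr13:40789361-40789610 (SLC25A15, plus strand), chr7:96322099-96322348 (SLC25A13, minus strand), chr3:48898883-48899132 (SLC25A20, minus strand) and chr19:19063744-19063993 (SLC25A42, plus strand), each just before the annotated start. The choice followed the values, and capitals mark the searched motifs.
SLC25A15: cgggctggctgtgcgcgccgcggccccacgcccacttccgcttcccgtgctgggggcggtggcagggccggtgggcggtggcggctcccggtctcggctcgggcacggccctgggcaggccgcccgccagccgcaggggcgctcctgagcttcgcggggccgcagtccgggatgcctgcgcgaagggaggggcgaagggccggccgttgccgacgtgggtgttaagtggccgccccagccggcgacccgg
SLC25A13: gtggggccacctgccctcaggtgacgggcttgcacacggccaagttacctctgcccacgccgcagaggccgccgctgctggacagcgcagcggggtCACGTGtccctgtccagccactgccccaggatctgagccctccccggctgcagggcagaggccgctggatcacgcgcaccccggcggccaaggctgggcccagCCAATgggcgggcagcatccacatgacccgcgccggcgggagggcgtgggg
SLC25A20: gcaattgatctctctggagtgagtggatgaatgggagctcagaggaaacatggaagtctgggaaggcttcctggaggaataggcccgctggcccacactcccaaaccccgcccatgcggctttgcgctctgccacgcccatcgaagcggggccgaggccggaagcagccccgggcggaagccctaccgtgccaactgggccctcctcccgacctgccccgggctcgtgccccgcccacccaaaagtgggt
SLC25A42: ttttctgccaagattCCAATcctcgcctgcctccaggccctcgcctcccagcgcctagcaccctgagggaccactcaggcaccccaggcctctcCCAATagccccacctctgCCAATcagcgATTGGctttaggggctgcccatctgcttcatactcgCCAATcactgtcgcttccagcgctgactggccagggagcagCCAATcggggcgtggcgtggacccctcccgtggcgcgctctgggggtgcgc

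SLC25A15 and SLC25A20 held none of the searched motifs in this window, and SLC25A13 held 1 E-box and 1 CCAAT box. The base composition differed as well, with a G and C content of 79.6% for SLC25A15 and 66.0% for SLC25A20, beside a median of 65.2% over the carriers searched.

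Genes that deliver carriers to the membrane were described beside the family. Carrier proteins are made in the cytosol, escorted through the intermembrane space by small TIM chaperones and inserted by the TIM22 complex. Of 15 measured genes of import and insertion, 12 were lower (80%) and 1 was higher (6.7%) with both siRNAs, with medians of -0.30 and -0.15. Over all measured genes, 32.1% were lower and 34.3% higher with both. TIMM10, a small TIM chaperone that escorts carriers, read 1412 (control), 687 (siRNA 1) and 803 (siRNA 2), differences of -1.04 and -0.81. TIMM13, another small TIM, differed by -0.51 and -0.42 and its other probe set by -0.91 and -0.12. TOMM40, the outer membrane pore, differed by -0.52 and -0.31. By the brightest probe set, TIMM10 alone in this list was past 1.5-fold with either siRNA. Dimmer probe sets of other genes were past it too, among them those of TIMM8A (-1.11 and -0.84), TOMM5 (-0.61 and -0.76) and TOMM70 (-0.37 and -0.64), named with their values known. For some genes the direction depended on the probe set. TIMM8B, counted lower, had a dimmer probe set at 0.24 and 0.15. TIMM10B, also counted lower, had dimmer ones at 0.39 and 0.02, at 0.08 and 0.06, and at -0.39 and -0.23. TOMM22, counted higher, had a dimmer probe set at -0.13 and -0.15.

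Other mitochondrial membrane transporters gave 17 measured genes, 8 lower (47.1%, against 32.1% of all measured genes) and 4 higher (23.5%, against 34.3%) with both siRNAs. Their medians were -0.11 and -0.07. The sideroflexin genes did not share a direction. SFXN4 differed by -0.64 and -0.52 and SFXN2 by -0.57 and -0.43, whereas SFXN5 differed by 0.20 and 0.34 and SFXN3 by 0.37 and -0.62. Dimmer SFXN5 probe sets differed by -0.12 and 0.16 and by -0.18 and -0.09, so its direction depended on the probe set. The serine transporter gene SFXN1 differed by -0.11 and -0.83, and was lower in its 2 other probe sets as well (-0.63 and -0.41 with siRNA 1, -0.67 and -1.04 with siRNA 2). Of 14 shuttle enzyme genes, 3 were lower (21.4%) and 6 higher (42.9%) with both, with medians of 0.00 and 0.10. IDH1, the cytosolic isocitrate dehydrogenase gene, differed by 0.53 and 0.58, and GPD2, of the glycerol phosphate shuttle, by -0.37 and -0.59. Of 10 genes of mitochondrial biogenesis, 7 were lower (70%) and 2 higher (20%) with both, with medians of -0.12 and -0.33. PPRC1, a coactivator gene, differed by -0.41 and -0.50, ESRRA by -0.15 and -0.65, and GABPA by 0.69 and 0.12 from values near the floor. The GABPA differences are bounds, since its control reading of 25.4 lay under the floor. Its other measured probe set differed by 0.34 and -0.09, so its direction with siRNA 2 depended on the probe set.

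**Figure D4:**
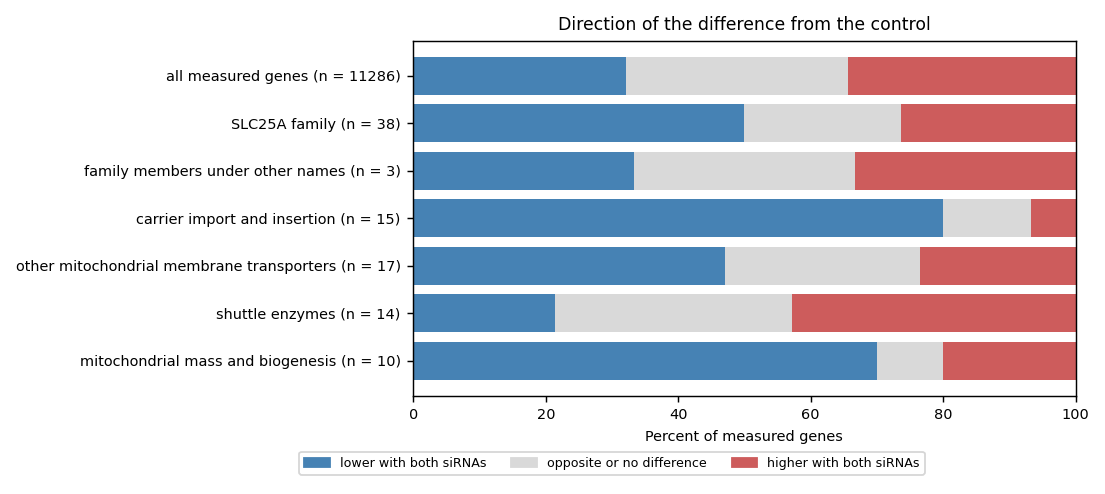
Bars divide the measured genes of each list by direction relative to the control array, as percent (horizontal axis): blue, lower with both siRNAs; grey, opposite ways or no difference; red, higher with both. Lower genes make up 50% of the 38 measured carriers and 32.1% of all 11286 measured genes, and 12 of the 15 import genes.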

How the data were processed

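RNA from 3 transfections of LNCaP cells was hybridised to Affymetrix arrays. The authors deposited 1 probe set intensity per array on a linear scale. GCOS 1.4 is named in the submitters' processing notes. Background correction, summarisation and normalization are not given in the sources used here. Because sorted log2 values of any 2 arrays lay within 0.10 of each other, the deposited values were not rescaled. They were floored at the median, put on the log2 scale and subtracted, with Python 3.11.15, numpy 2.4.6 and pandas 2.3.3. Symbols are those of GEO's platform annotation; all 117 carrier probe sets matched RefSeq by Entrez identifier. The calculation was tested on simulated arrays with little noise and changes well past 2-fold. Such a test checks the arithmetic and not the precision of small differences. With 1 array per group the number of arrays limits the precision, and no p-value was computed. The members, lists and limits were chosen with earlier results of these data known. By the naming rule every member is accounted for, with full values for those past 2-fold, or past 1.5-fold in the same direction with both siRNAs, the 5 brightest, the ADP/ATP carriers, the 6 most different between the siRNAs and those whose probe sets disagree most. It adds the 3 largest mean differences of each related list. Other members past 1.5-fold are given too. Planned protein features were not analysed here. Alternatives were other floors or none, mean or plain probe sets, quantile normalization and median centring. Some items of the family are not reported here.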

Additional observations from a re-analysis of the deposited data

How the results depend on the processing

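No array could be left out, since each group had 1, and the spread between cultures is unknown. No paired analysis was possible because the groups share no more than 1 replicate number. With the floor at the 75th percentile, only 28 carriers were measured. Of these, 3 were 1.5-fold or more from the control with siRNA 1, 2 with siRNA 2 and 2 between the siRNAs. Another count, those higher with both, was 6 (21.4%, against 33.7% of all genes measured at that floor). With the mean of all probe sets, 1 was past 2-fold and 2 past 1.5-fold with siRNA 1, 0 past 1.5-fold with siRNA 2 and 2 between the siRNAs. That mean counts a probe set under the floor on all arrays as no difference, which draws genes with such probe sets towards no difference. With plain probe sets only, 13 carriers were measured. Of these, 1 was past 2-fold and 2 past 1.5-fold with siRNA 1, and 1 past 1.5-fold between the siRNAs. With both siRNAs, 6 were lower (46.2%) and 3 higher (23.1%). The first share lay above, and the second below, that of all genes measured in this setting. Quantile normalization put 1 carrier, SLC25A32, past 1.5-fold with both siRNAs. With the mean of the measured probe sets, chosen after seeing the data, 1 was past 2-fold with siRNA 1, 2 past 1.5-fold with siRNA 2 and 2 between the siRNAs. The SLC25A23 difference with siRNA 1 was 0.25 with plain probe sets, and that of SLC25A35 was -0.14 with the mean of all. Of the carriers' own differences, SLC25A4 changed sign with both means (-0.14 and -0.21) and, with siRNA 1, under quantile normalization, and SLC25A26 with plain probe sets (0.15). The median carrier difference stayed below 0 in all settings tried, from -0.21 to -0.08 with siRNA 1 and from -0.17 to -0.06 with siRNA 2.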
